A study of Mus musculus with 24 samples.

Results

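The 6 genes described here are the mouse receptors for immunoglobulin G and the subunits that go with them. They are Fcgr1, Fcgr2b, Fcgr3 and Fcgr4, which encode the receptors FcγRI, FcγRIIB, FcγRIII and FcγRIV, Fcer1g, which encodes the FcR γ chain, and Fcgrt, which encodes the heavy chain of the neonatal receptor FcRn. They were taken by gene symbol from a table of 23930 amplicons, in which each gene is measured by 1 amplicon, and all 6 were found. Transcript levels were measured in 24 libraries of spleen monocytes sorted from C57BL/6 mice, with 4 libraries in each of 6 groups. The groups were Ly6C hi and Ly6C low cells, each from wild-type (WT) mice, from Slc29a3-/- mice, which lack the lysosomal nucleoside transporter ENT3, and from Slc29a3-/- Tlr7-/- mice, which also lack the RNA sensor TLR7. In the plots the mutants are abbreviated KO (Slc29a3-/-) and DKO (Slc29a3-/- Tlr7-/-). The mice had received no treatment, both mutations were made by CRISPR/Cas9 and are present in every cell of the animal, and the WT mice were bought from a breeder. Age and sex of the mice behind the libraries are not given in the sources used here. The labels call the sorted cells macrophages and the study calls them monocytes.

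Monocytes leave the bone marrow as Ly6C hi cells, and part of them become Ly6C low cells, which patrol the inner wall of blood vessels and take up immune complexes. FcγRI, FcγRIII and FcγRIV bind IgG outside the cell and signal through the FcR γ chain, whose cytoplasmic tail carries an activating motif (ITAM) that recruits the kinase Syk once Src-family kinases have phosphorylated its tyrosines. FcγRIIB carries its own inhibitory motif (ITIM), which recruits the phosphatase SHIP1 (Inpp5d) and dampens the same signal, so the balance of activating and inhibitory receptors sets the threshold at which an immune complex triggers a cell. FcRn has another task. It pairs with β2-microglobulin (B2m) in endosomes, binds IgG at acid pH and returns it to the cell surface.

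The sequences that separate the activating from the inhibitory arm are shown first, read from the coding sequence of the first-numbered GENCODE transcript on GRCm38. The activating motif of Fcer1g lies on the minus strand at chr1:171229889-171230072, is interrupted by an intron, and covers 45 coding bases. Capitals mark the pair of tyrosine codons and the leucine codon that follows each of them, and 7 codons lie between the first such pair and the second.
Fcer1g: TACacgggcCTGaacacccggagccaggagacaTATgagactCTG
The inhibitory motif of Fcgr2b lies on the minus strand at chr1:170961056-170961198, is also interrupted by an intron, and is shown within 48 coding bases. Capitals mark the isoleucine, tyrosine and leucine codons of the motif.
Fcgr2b: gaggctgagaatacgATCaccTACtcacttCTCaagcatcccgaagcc
Among the last 100 codons of each of the 6 coding sequences, the spacing of the activating motif was found at 1 place in Fcer1g and in none of the others. The looser inhibitory spacing was found at 1 place each in Fcgr2b, Fcgr4 and Fcer1g and at 2 places in Fcgr1, so a match of these letters is a description of the sequence and not evidence of a working site. Fcgr3 and Fcgr2b are close relatives. Their coding sequences share a run of 129 identical bases, against at most 14 for any other pair of members, and where the amplicon of either gene lies is not given in the files, so reads could be shared between these genes.

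4 of the 6 members lie on chromosome 1 within 275749 bases. On GRCm38, Fcgr2b spans 170958617 to 170976547 on the minus strand, Fcgr4 171018920 to 171029761 on the plus strand, Fcgr3 171051174 to 171064935 on the minus strand and Fcer1g 171229572 to 171234365 on the minus strand. Fcgr1 lies on chromosome 3 (96282909 to 96293969, minus strand) and Fcgrt on chromosome 7 (45092990 to 45103851, minus strand). The 250 bases before the RefSeq start of Fcgr4 are shown because Fcgr4 was the member with the largest Slc29a3-/- minus WT difference in Ly6C low cells. They lie on the plus strand at chr1:171018676-171018925.
Fcgr4: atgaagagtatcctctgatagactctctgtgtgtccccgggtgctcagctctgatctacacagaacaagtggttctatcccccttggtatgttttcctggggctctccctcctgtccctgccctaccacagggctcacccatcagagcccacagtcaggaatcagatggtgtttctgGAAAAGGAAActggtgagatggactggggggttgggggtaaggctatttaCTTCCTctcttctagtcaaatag
Capitals mark a match to the letters of an interferon-stimulated response element (GAAA, 2 bases of any kind and GAAA again) and a match to AGGAAG, the core letters bound by PU.1 and other ETS factors, here on the opposite strand. Both strands were searched. Of 32851 RefSeq promoters with 250 bases, 2.98% hold the former and 29.5% the latter, and 7.02% hold TTCNNNGAA, the letters of an interferon-gamma activation site, which among the members was found in Fcgr1.

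The libraries held the equivalent of 12311031 to 14572210 reads, inferred from the step of the lowest values, so that 3 reads correspond to 0.206 to 0.244 reads per 1000000 (RPM). That floor covers counting error only, and every member lay far above it in each library. WT replicates 1 to 3 of both subsets carried barcodes 11 to 16 and 14237263 to 14572210 reads, while the other 18 libraries, WT replicate 4 among them, carried other barcodes and 12311031 to 13048385 reads. WT replicates 1 to 3 also held Xist without Ddx3y and WT replicate 4 the reverse, so barcode set, depth and sex cannot be told apart within WT. For this reason WT comparisons are also given against WT replicate 4 alone, in which the lone WT library is assumed to vary like the other groups, and without it. 3 Slc29a3-/- Tlr7-/- libraries (Ly6C hi replicates 2 and 3 and Ly6C low replicate 2) held both transcripts. Xist was at 109 to 425 RPM and Ddx3y at 70.2 to 98.9 RPM in them, and results were repeated without them. Of the Slc29a3-/- libraries, 3 in each subset held Xist alone and 1 Ddx3y alone. Of the Slc29a3-/- Tlr7-/- libraries, 1 held Xist alone and 1 Ddx3y alone in Ly6C hi cells, and 1 and 2 in Ly6C low cells. The mutants thus also differed in sex genes, and the part of sex was not tested. Transcripts of the targeted genes did not check the genotype labels, since the mutations are small and the place of each amplicon is not given in the files. Slc29a3 was 188 ± 28.8 RPM (SD, n = 4) in WT, 157 ± 21.0 in Slc29a3-/- and 272 ± 100 in Slc29a3-/- Tlr7-/- Ly6C hi cells, and 51.8 ± 15.1, 58.2 ± 6.25 and 55.4 ± 12.8 RPM in Ly6C low cells. Tlr7 was 265 ± 52.4, 180 ± 49.2 and 317 ± 40.2 RPM in Ly6C hi and 381 ± 81.8, 401 ± 8.30 and 527 ± 120 RPM in Ly6C low cells, in the same order. The genotypes therefore rest on the labels. Monocyte markers (Csf1r, Itgam, Cd68 and Lyz2) were present in all groups, and Ccr2, a marker of Ly6C hi monocytes, had group means of 406 to 726 RPM in Ly6C hi and 33.6 to 76.5 RPM in Ly6C low cells. Ccr2 overlapped across genotypes (lowest Ly6C hi library 132 RPM, highest Ly6C low library 223 RPM) but not within one. In Ly6C hi cells Cd68 was lower in every Slc29a3-/- than in every WT library. In both subsets Csf1r and Lyz2 were higher in every Slc29a3-/- Tlr7-/- than in every WT library, as was Csf1r in Slc29a3-/- Ly6C low libraries.

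The levels of the 6 members split them by subset rather than together. Fcgr1, the high-affinity receptor, had its 3 highest group means in Ly6C hi cells, in the order Slc29a3-/- (130 ± 31.6 RPM), WT (143 ± 7.76) and Slc29a3-/- Tlr7-/- (179 ± 27.5). The Ly6C low means were 54.4 ± 14.3 RPM in Slc29a3-/- Tlr7-/-, 64.9 ± 17.5 in WT and 71.8 ± 4.55 in Slc29a3-/- cells. Neighbours in this order overlapped except at the step between the subsets. Fcgrt, the FcRn heavy chain, ran the opposite way, with means of 75.1 ± 22.1 RPM in Slc29a3-/-, 135 ± 15.7 in WT and 156 ± 26.3 in Slc29a3-/- Tlr7-/- Ly6C hi cells. Its Ly6C low means were 341 ± 67.7 RPM in WT, 436 ± 84.3 in Slc29a3-/- Tlr7-/- and 487 ± 36.0 in Slc29a3-/- cells. For Fcgrt the libraries of Slc29a3-/- Ly6C hi cells stood below all others, and those of Ly6C low cells above all others.

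Fcer1g, the shared signalling chain, was highest in Ly6C low cells, with 3918 ± 570 RPM in WT, 4790 ± 247 in Slc29a3-/- and 5122 ± 992 in Slc29a3-/- Tlr7-/-. In Ly6C hi cells it was 2539 ± 213 RPM in WT, 2048 ± 195 in Slc29a3-/- and 2758 ± 390 in Slc29a3-/- Tlr7-/-. The group means of Fcgr3, a low-affinity activating receptor, ran from 364 ± 68.1 RPM in WT Ly6C low to 713 ± 211 in Slc29a3-/- Tlr7-/- Ly6C hi cells. Those of Fcgr2b, the inhibitory receptor, ran from 30.5 ± 4.98 RPM in WT Ly6C low to 85.3 ± 24.2 in Slc29a3-/- Ly6C low cells. For Fcgr3 and Fcgr2b every pair of neighbouring groups overlapped. Fcgr4, which binds immune complexes of IgG2a and IgG2b, had means of 33.6 ± 6.14 (WT), 46.1 ± 8.03 (Slc29a3-/- Tlr7-/-) and 52.0 ± 9.48 RPM (Slc29a3-/-) in Ly6C hi cells, where neighbours in this order overlapped. In Ly6C low cells its means were 744 ± 95.3, 1580 ± 196 and 2649 ± 337 RPM in the same order, and none of these 3 groups overlapped.

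**Figure D1:**
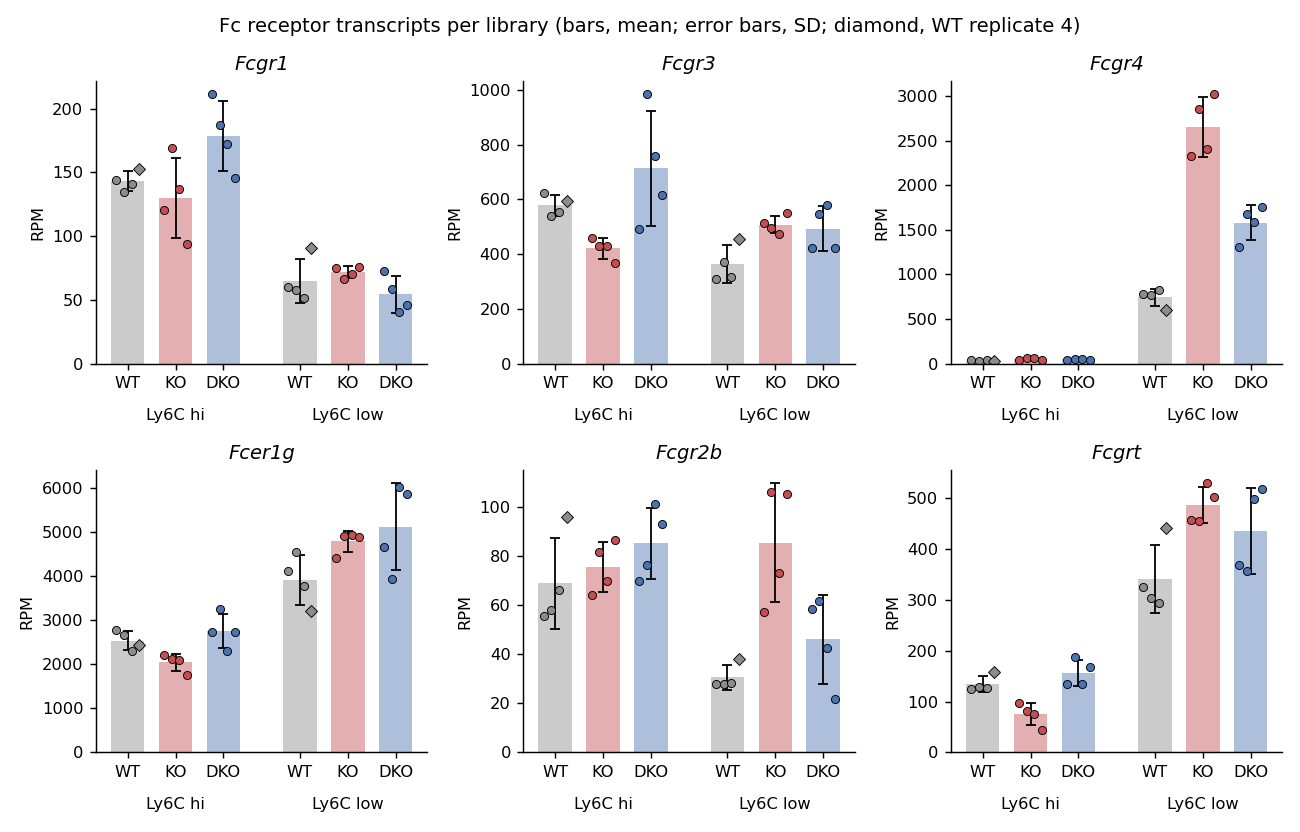
Level of each member in RPM (y axis, linear, from 0) in the 4 libraries of each of the 6 groups (x axis); bars are means, error bars SD, and diamonds mark WT replicate 4. Fcgr4 rises from a mean of 744 RPM in WT to 2649 RPM in KO (Slc29a3-/-) Ly6C low cells, and Fcgr2b in Ly6C low cells from 30.5 to 85.3 RPM.

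The comparison of the subsets asked which receptors mark each kind of monocyte in each genotype. In WT mice, Ly6C low cells held less Fcgr1, Fcgr3 and Fcgr2b and more Fcer1g and Fcgrt than Ly6C hi cells. The activating Fcgr1 and Fcgr3 and the inhibitory Fcgr2b were thus lower together, while the signalling chain and FcRn were higher. Fcgr4 was not a finding in this comparison, because cells were sorted as Ly6C low FcγRIV high against Ly6C high FcγRIV low, and its difference (4.44 on the log2(RPM + 1) scale in WT) is given only as a description of the sort. In bulk libraries, more cells with a transcript and more transcript per cell cannot be told apart.

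In WT Ly6C low cells Fcgr1 was at 60.0, 57.8, 51.2 and 90.6 RPM and in WT Ly6C hi cells at 144, 134, 141 and 153 RPM, in replicates 1 to 4. The groups did not overlap, and the log2 fold change was -1.16 (SE 0.19, adjusted P = 3.3e-05, limma with Benjamini-Hochberg adjustment, as for every adjusted P below). Fcgrt differed by 1.32 (SE 0.19, adjusted P = 6.7e-06), a 2.53-fold higher mean, Fcgr2b by -1.13 (adjusted P = 0.0014), Fcgr3 by -0.68 (adjusted P = 0.0030) and Fcer1g by 0.62 (adjusted P = 0.0036). Apart from Fcgr4, whose call the gate fixed, 5 of 5 members were called and none overlapped, beside 29.6% of 11042 genes called and 33.8% not overlapping. Markers of other cells differed between the subsets too, with neutrophil markers summing to 12644 to 20181 RPM in WT Ly6C hi and 32.3 to 1233 RPM in WT Ly6C low libraries, and T cell markers to 11.9 to 82.3 and 2.25 to 9.43 RPM. Neutrophils express Fcgr3 and Fcer1g, and the part of these cells in the subset differences was not tested. Against WT replicate 4 alone, 2 of the 6 were called (Fcgr4, and Fcgrt at 1.47, adjusted P = 0.036), with Fcgr1 at -0.75 (adjusted P = 0.34) and Fcgr2b at -1.31 (adjusted P = 0.20).

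In Slc29a3-/- mice fewer members were called between the subsets, without Fcgr3 and Fcgr2b. Fcgrt was 6.48-fold higher in Ly6C low than in Ly6C hi cells (log2 fold change 2.73, SE 0.19, adjusted P = 2.0e-11), Fcer1g was higher by 1.23 (adjusted P = 5.0e-07) and Fcgr1 was lower (-0.82, adjusted P = 0.0011). For Fcgr3 the difference was 0.27 (95% interval -0.08 to 0.62, adjusted P = 0.21), with all 4 Ly6C low libraries above all 4 Ly6C hi libraries, and for Fcgr2b it was 0.14 (-0.39 to 0.67, adjusted P = 0.70) with overlapping groups. Apart from Fcgr4, 3 of 5 members were called, beside 41.2% of all genes.

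Slc29a3-/- Tlr7-/- mice showed the same directions as WT for all members. Fcgr1 differed by -1.72 (adjusted P = 9.6e-08), Fcgr2b by -0.96 (adjusted P = 0.0050), Fcgr3 by -0.50 (adjusted P = 0.025), Fcer1g by 0.88 (adjusted P = 8.4e-05) and Fcgrt by 1.47 (adjusted P = 1.3e-06). Apart from Fcgr4, 5 of 5 were called, beside 33.3% of genes, and without the 3 libraries with Xist and Ddx3y Fcgr3 was not called (-0.23, adjusted P = 0.36). Its call was also lost without Ly6C low replicate 1 or 4 or Ly6C hi replicate 2 or 3 alone (adjusted P up to 0.117).

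**Figure D2:**
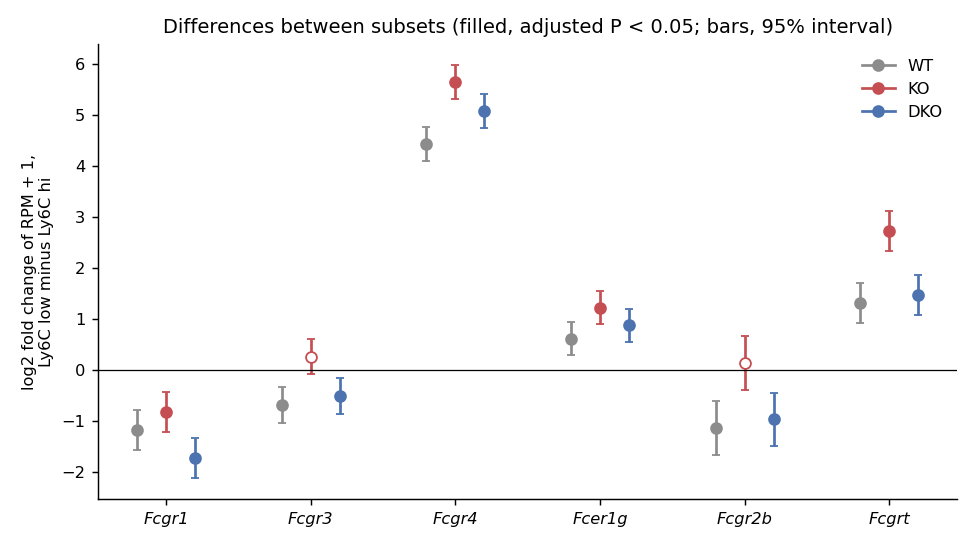
Log2 fold change of RPM + 1 between Ly6C low and Ly6C hi cells (y axis) for each member (x axis) within WT, KO (Slc29a3-/-) and DKO (Slc29a3-/- Tlr7-/-) mice; points are limma estimates, filled where the adjusted P was under 0.05, and bars are 95% intervals. Fcgr3 and Fcgr2b lie below 0 in WT (-0.68 and -1.13) and at 0.27 and 0.14, not called, in KO; Fcgr4 reflects the sort.

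The genotype comparison in Ly6C low cells asked how these receptors differed between Slc29a3-/- and WT mice in the patrolling subset. It also asked how Slc29a3-/- Tlr7-/- mice compared with both. Fcgr4 and Fcgr2b, an activating receptor and the inhibitory one, rose in Slc29a3-/- cells, and Fcgr4 also rose in Slc29a3-/- Tlr7-/- cells, to a level between the other groups. No member fell. FcγRIV protein was part of the gate in every genotype, so the Fcgr4 values describe cells chosen for high FcγRIV. All these comparisons share libraries, since the same 4 WT and the same 4 Slc29a3-/- libraries enter more than one of them.

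Fcgr4 in Ly6C low cells was at 781, 769, 821 and 605 RPM in WT, at 2323, 2851, 2406 and 3017 RPM in Slc29a3-/-, and at 1306, 1683, 1582 and 1750 RPM in Slc29a3-/- Tlr7-/- libraries. Every Slc29a3-/- library was above every Slc29a3-/- Tlr7-/- library, and each of those above every WT library. The Slc29a3-/- mean was 3.56-fold the WT mean (log2 fold change 1.83, SE 0.15, adjusted P = 1.7e-05), and the exact two-sided permutation P was 0.0286, the smallest that 4 against 4 can give. Against WT replicate 4 alone the difference was 2.12 (adjusted P = 0.012), and without it 1.74 (adjusted P = 1.1e-05). The Slc29a3-/- Tlr7-/- mean was 2.12-fold the WT mean (1.09, SE 0.15, adjusted P = 0.0034), with 1.38 against WT replicate 4 alone (adjusted P = 0.18). Slc29a3-/- exceeded Slc29a3-/- Tlr7-/- by 0.75 (SE 0.15, 1.68-fold, adjusted P = 0.018), a comparison without barcodes 11 to 16 but with the difference in sex genes given above. That last call was lost with TMM scaling (0.70, adjusted P = 0.060), with RLE scaling (0.67, adjusted P = 0.083), with the replicate number as a block (adjusted P = 0.050216), with no filter (adjusted P = 0.055) and in 3 of 12 omissions of a single library (adjusted P up to 0.104).

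Fcgr2b in Ly6C low cells was at 27.7, 27.9, 28.3 and 37.9 RPM in WT and at 57.2, 106, 73.0 and 105 RPM in Slc29a3-/- libraries. The groups did not overlap, and the mean was 2.80-fold higher in Slc29a3-/- (1.42, SE 0.29, adjusted P = 0.014). Against WT replicate 4 alone, outside barcodes 11 to 16, the difference was 1.10, with 1 WT library that had no spread of its own. That library held Ddx3y alone, while 3 of the Slc29a3-/- Ly6C low libraries held Xist alone. Omission of Slc29a3-/- replicate 2 or 4 or of WT replicate 3 ended the call (adjusted P up to 0.062). Fcgr2b in Slc29a3-/- Tlr7-/- libraries was at 58.3, 61.6, 42.5 and 21.7 RPM, from below the lowest WT library to above the lowest Slc29a3-/- library. Neither the difference from WT (0.49, 95% interval -0.14 to 1.12, adjusted P = 0.28) nor that from Slc29a3-/- (0.94, adjusted P = 0.13) was called.

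Fcgr3 and Fcgrt did not pass the threshold in Slc29a3-/- Ly6C low cells, although no library overlapped. Fcgr3 was at 308, 372, 318 and 457 RPM in WT and at 513, 494, 474 and 548 RPM in Slc29a3-/- libraries (0.49, SE 0.16, adjusted P = 0.091). Fcgrt was at 325, 305, 294 and 441 RPM in WT and at 458, 456, 530 and 502 RPM in Slc29a3-/- libraries (0.53, SE 0.17, adjusted P = 0.088). For both, the highest WT library was replicate 4. Without it the differences were 0.61 for Fcgr3 (adjusted P = 0.013) and 0.66 for Fcgrt (adjusted P = 0.011), and against it alone they were 0.15 and 0.14 (adjusted P = 0.91 and 0.93).

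Fcer1g in Ly6C low cells was at 4127, 4557, 3778 and 3210 RPM in WT, at 4421, 4907, 4938 and 4895 RPM in Slc29a3-/- and at 4669, 3941, 6018 and 5862 RPM in Slc29a3-/- Tlr7-/- libraries, with overlap throughout. The difference of Slc29a3-/- from WT was 0.30 (95% interval -0.06 to 0.66, adjusted P = 0.35). Fcgr1 differed by 0.18 (-0.26 to 0.61, adjusted P = 0.69). Thus 2 of 6 members were called in Slc29a3-/- against WT, beside 4.64% of 10317 genes, and 4 of 6 did not overlap, beside 17.7%. In Slc29a3-/- Tlr7-/- against WT 1 of 6 was called, beside 8.87%, and in Slc29a3-/- against Slc29a3-/- Tlr7-/- 1 of 6, beside 1.93%. The median log2 fold change of the 6 members in these comparisons was 0.51, 0.41 and 0.30, beside 0.00, -0.10 and 0.08 over all genes tested.

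Markers of other cells moved with genotype in the Ly6C low libraries as well. The summed red pulp macrophage markers (Spic, Vcam1, Cd5l, Hmox1) were 410 to 464 RPM in WT, 521 to 771 RPM in Slc29a3-/- and 232 to 1490 RPM in Slc29a3-/- Tlr7-/- libraries, with 2 of 4 markers (Spic, Hmox1) above every WT library in Slc29a3-/-. The erythroid markers summed to 2.39 to 5.83, 35.2 to 42.1 and 0.969 to 6.16 RPM. B cell markers, relevant because B cells express Fcgr2b, summed to 32.7 to 40.8, 36.8 to 58.7 and 16.3 to 32.9 RPM, nearly all of it Cd79b. Neutrophil markers summed to 32.3 to 1233, 13.8 to 94.1 and 2.22 to 40.8 RPM. Conventional dendritic cell markers summed to 34.3 to 68.7, 12.96 to 26.2 and 40.7 to 70.5 RPM, and 4 of the 5 were lower in every Slc29a3-/- library than in every other Ly6C low library. The part of these cells in the differences above was not tested.

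In Ly6C hi cells Fcgr4 also rose and Fcgrt fell in Slc29a3-/- mice, while no member was called in Slc29a3-/- Tlr7-/- mice against WT. The direction of Fcgrt was thus the opposite of the uncalled difference seen in Ly6C low cells. Scaling weighed on this subset: TMM and RLE moved the median of all genes in Slc29a3-/- minus WT from -0.14 by 0.156 and 0.112, and in Slc29a3-/- minus Slc29a3-/- Tlr7-/- from -0.12 by 0.143 and 0.0957. The share of calls that were higher in Slc29a3-/- than in WT went from 36.3% to 56.5% with TMM and 50.4% with RLE. The member calls of the main fit between genotypes within Ly6C hi cells were also made under each of these scalings.

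Fcgrt in Ly6C hi cells was at 124, 129, 128 and 158 RPM in WT and at 97.3, 82.1, 76.4 and 44.7 RPM in Slc29a3-/- libraries. Every Slc29a3-/- library was below every WT library, and the mean was 0.557 of the WT mean (-0.88, SE 0.20, adjusted P = 0.0058, with -0.72 under TMM and -0.76 under RLE). Against WT replicate 4 alone it was -1.12 (adjusted P = 0.13), and without it -0.80 (adjusted P = 0.013). In Slc29a3-/- Tlr7-/- libraries Fcgrt was at 135, 188, 134 and 168 RPM, all above the Slc29a3-/- libraries and overlapping WT. The Slc29a3-/- minus Slc29a3-/- Tlr7-/- difference was -1.09 (SE 0.20, adjusted P = 0.0020), and -1.05 without the libraries holding Xist and Ddx3y (adjusted P = 0.016).

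Fcgr4 in Ly6C hi cells was at 40.6, 32.1, 35.6 and 25.97 RPM in WT and at 43.7, 62.5, 57.5 and 44.2 RPM in Slc29a3-/- libraries. The groups did not overlap, and the Slc29a3-/- mean was 1.55-fold higher (0.62, SE 0.18, adjusted P = 0.021). The call was lost when WT replicate 2 or 4 or Slc29a3-/- replicate 2 or 3 was left out (adjusted P up to 0.061), and against WT replicate 4 alone the difference was 0.96 (adjusted P = 0.13). Fcgr4 in Slc29a3-/- Tlr7-/- libraries was at 42.7, 55.2, 49.6 and 36.8 RPM (0.45 against WT, adjusted P = 0.16).

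Fcgr3 in Ly6C hi cells was at 624, 538, 555 and 595 RPM in WT, at 459, 429, 431 and 367 RPM in Slc29a3-/-, and at 492, 983, 760 and 616 RPM in Slc29a3-/- Tlr7-/- libraries. The Slc29a3-/- libraries were below all others. Only the difference from Slc29a3-/- Tlr7-/- was called (-0.71, SE 0.18, adjusted P = 0.011), and it was not called without the libraries holding Xist and Ddx3y, replicates 2 and 3, which had the highest values (-0.39, adjusted P = 0.10). The difference from WT was -0.46 (SE 0.18, adjusted P = 0.065). It was called when only these groups were fitted (adjusted P = 0.010), in a fit of all 24 libraries (adjusted P = 0.048) and without Slc29a3-/- Tlr7-/- replicate 1 or 2. Under TMM (-0.29, adjusted P = 0.23) and RLE scaling (-0.34, adjusted P = 0.17) it stayed uncalled.

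Fcer1g in Ly6C hi cells was at 2769, 2657, 2300 and 2431 RPM in WT, at 2213, 2110, 2102 and 1765 RPM in Slc29a3-/- and at 2734, 3258, 2305 and 2733 RPM in Slc29a3-/- Tlr7-/- libraries. Here too the Slc29a3-/- libraries lay below all others, with -0.31 against WT (adjusted P = 0.13) and -0.42 against Slc29a3-/- Tlr7-/- (adjusted P = 0.053), neither called. The latter was called among genes with a mean of at least 10 RPM (adjusted P = 0.037), with a pseudocount of 0.1 (adjusted P = 0.047) and without Slc29a3-/- Tlr7-/- replicate 3. Under TMM (-0.27, adjusted P = 0.20) and RLE scaling (-0.32, adjusted P = 0.14) it stayed uncalled. Fcgr1 was at 121, 169, 137 and 93.8 RPM in Slc29a3-/- and at 211, 187, 172 and 146 RPM in Slc29a3-/- Tlr7-/- libraries (-0.47, adjusted P = 0.056), and differed from WT by -0.17 (adjusted P = 0.48). Fcgr2b in Ly6C hi cells was at 55.4, 58.0, 66.0 and 95.7 RPM in WT and at 64.2, 81.4, 69.6 and 86.4 RPM in Slc29a3-/- libraries (0.15, 95% interval -0.24 to 0.54, adjusted P = 0.56).

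In Slc29a3-/- against WT 2 of 6 members were called in Ly6C hi cells, beside 27.9% of 10561 genes, a share close to the background, and 4 of 6 did not overlap, beside 33.7%. In Slc29a3-/- against Slc29a3-/- Tlr7-/- 2 of 6 were called, beside 20.4%. In Slc29a3-/- Tlr7-/- against WT 0 of 6 were called, beside 1.46%, and 0 of 6 passed an unadjusted limma P under 0.05 with a fold over 1.5, beside 12.6%. The members' median was -0.24, -0.45 and 0.28, beside -0.14, -0.12 and -0.06 over all genes.

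The Slc29a3-/- Ly6C hi libraries also held more neutrophil transcripts. The 7 neutrophil markers summed to 12644 to 20181 RPM in WT, 38875 to 74849 RPM in Slc29a3-/- and 5798 to 20165 RPM in Slc29a3-/- Tlr7-/- Ly6C hi libraries, and none was at 0 in all libraries of a group. Of the 7, 5 (Camp, Cxcr2, Ltf, Ly6g and Ngp) were higher in every Slc29a3-/- than in every WT library, and 1 (Mmp8) was lower. Ly6g, the antigen used to gate neutrophils out, was at 17.9 to 33.5 RPM in WT, 59.2 to 139 RPM in Slc29a3-/- and 2.77 to 39.8 RPM in Slc29a3-/- Tlr7-/- libraries. Neutrophils express Fcgr3, Fcgr4 and Fcer1g, and their part in these differences was not tested. Markers of NK cells (112 to 488 RPM in WT, 21.5 to 43.2 RPM in Slc29a3-/-) were lower, as were those of conventional dendritic cells (75.7 to 102 against 15.1 to 36.8 RPM) and plasmacytoid dendritic cells (59.8 to 111 against 13.2 to 23.96 RPM), T cells (11.9 to 82.3 against 1.59 to 6.96 RPM) and B cells (30.4 to 39.1 against 14.5 to 20.8 RPM), and their part was likewise not tested.

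**Figure D3:**
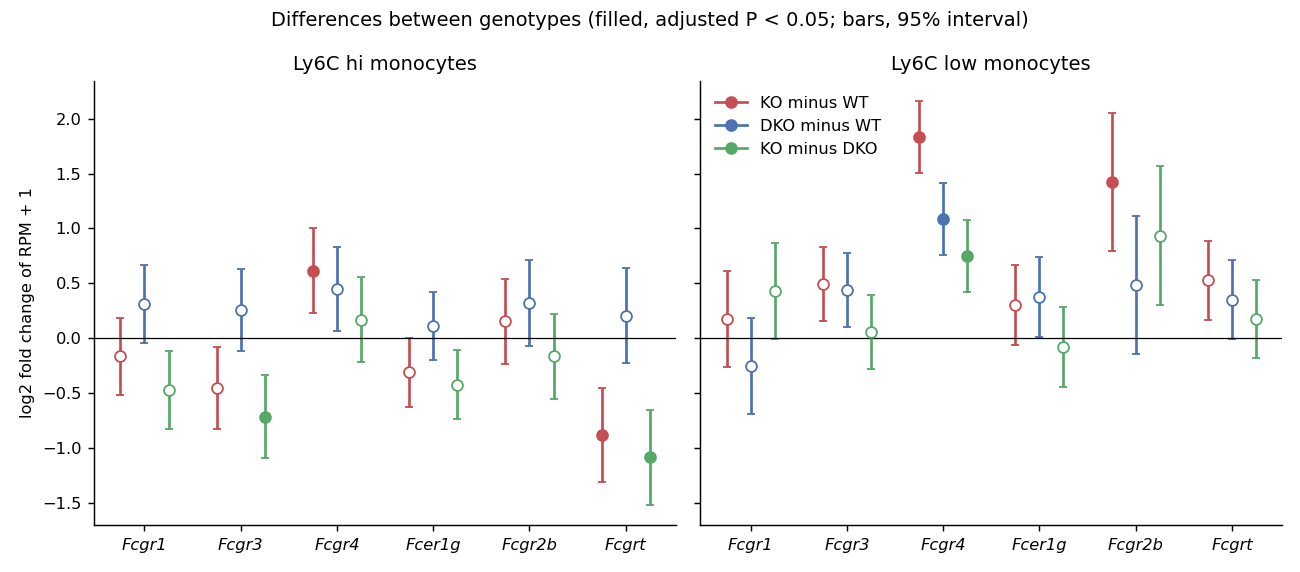
Log2 fold change of RPM + 1 between genotypes (y axis) for each member (x axis), in Ly6C hi (left) and Ly6C low (right) cells; points are limma estimates, filled where the adjusted P was under 0.05, and bars are 95% intervals. The KO (Slc29a3-/-) minus WT difference of Fcgrt is -0.88 in Ly6C hi and 0.53, not called, in Ly6C low cells, and that of Fcgr4 is 0.62 and 1.83.

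Whether the genotype difference itself differed between the subsets was tested by the interaction of genotype and subset over all 24 libraries. The barcodes of WT replicates 1 to 3 and markers of other cells also differed between the groups, and their part was not tested. For 4 of the 6 members the Slc29a3-/- minus WT difference was lower in Ly6C hi than in Ly6C low cells, beside 8.85% of genes called in either direction and 4.72% called in this direction. These were Fcgrt (-1.41, adjusted P = 0.0016), Fcgr2b (-1.27, adjusted P = 0.027), Fcgr4 (-1.22, adjusted P = 0.0013) and Fcgr3 (-0.95, adjusted P = 0.012). The gate held FcγRIV low in Ly6C hi and high in Ly6C low cells of every genotype, so the interaction of Fcgr4 cannot be told apart from the sort, and 3 of the other 5 members were called. For Fcer1g (-0.61, adjusted P = 0.087) and Fcgr1 (-0.34, adjusted P = 0.49) it was not called. Against WT replicate 4 alone, 1 WT library was left in each subset, with no spread of its own. The interactions were then -1.26 for Fcgrt, -1.45 for Fcgr2b, -1.16 for Fcgr4 and -0.65 for Fcgr3. For Slc29a3-/- minus Slc29a3-/- Tlr7-/-, Fcgrt (-1.26, adjusted P = 0.0046), Fcgr1 (-0.90, adjusted P = 0.035) and Fcgr3 (-0.77, adjusted P = 0.044) were called, beside 8.97% of genes. With TMM or RLE scaling, or without the libraries holding Xist and Ddx3y, 1 of these 3 calls was left, that of Fcgrt. With each of the 24 libraries omitted in turn, the call of Fcgr3 was lost 15 times (adjusted P up to 0.102) and that of Fcgr1 9 times (up to 0.097), and the call of Fcgr2b in Slc29a3-/- minus WT 8 times (up to 0.069). TMM and RLE scaling moved the all-gene median of both interactions by 0.153 to 0.183, from -0.15 and -0.20.

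The balance of receptors within a library was described by ratios of RPM, which are compared between groups only, since amplicons of different genes need not be read equally well. In Ly6C low cells the ratio of the activating Fcgr1 to the inhibitory Fcgr2b was 2.11 ± 0.240 (SD, n = 4) in WT, 0.905 ± 0.309 in Slc29a3-/- and 1.32 ± 0.560 in Slc29a3-/- Tlr7-/- cells. The ratio of Fcgr3 to Fcgr2b was 11.9 ± 1.01, 6.33 ± 1.92 and 12.3 ± 5.52. For both ratios every Slc29a3-/- Ly6C low library was below every WT library, while the Slc29a3-/- Tlr7-/- libraries spread across both. Fcgr4 moved the other way relative to Fcgr3, at 2.13 ± 0.583, 5.22 ± 0.544 and 3.26 ± 0.608, and relative to Fcer1g the Fcgr4 ratio was 0.191 ± 0.0199 in WT and 0.553 ± 0.0574 in Slc29a3-/- cells. The ratio of Fcgr4 to Fcgr2b, the receptors that both rose, was 25.2 ± 6.17 in WT and 32.3 ± 6.09 in Slc29a3-/- cells, which overlapped. In Ly6C hi cells the ratio of Fcgr1 to Fcgr2b was 2.16 ± 0.419, 1.75 ± 0.452 and 2.19 ± 0.681 in the 3 genotypes, with overlap. That of Fcgr3 to Fcgr2b was 8.79 ± 2.09, 5.71 ± 1.25 and 8.52 ± 2.94, also with overlap. Fcgr4 relative to Fcgr3 was 0.0581 ± 0.00992, 0.124 ± 0.0216 and 0.0670 ± 0.0137, and relative to Fcer1g 0.0132, 0.0254 and 0.0169. For both Fcgr4 ratios every Slc29a3-/- Ly6C hi library was above every WT library. No test was made of these ratios.

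**Figure D4:**
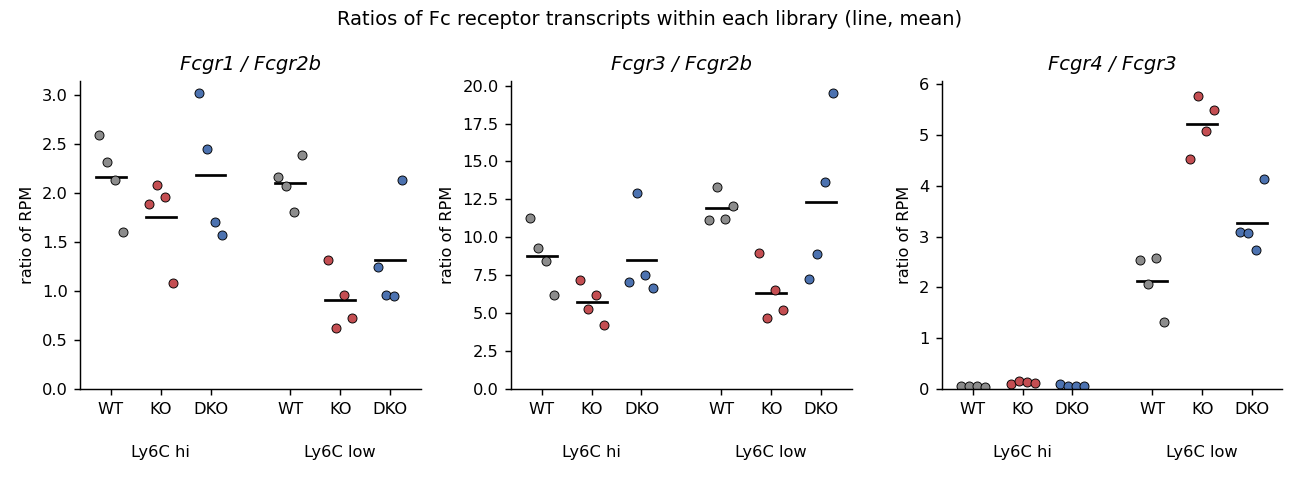
Ratio of RPM between 2 members within each library (y axis, linear, from 0) in the 6 groups (x axis); points are libraries and lines means of 4. In Ly6C low cells, Fcgr1 over Fcgr2b is 2.11 in WT and 0.905 in KO (Slc29a3-/-), and Fcgr4 over Fcgr3 is 2.13 in WT and 5.22 in KO.

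The rest of the pathway was read from lists of genes, described by counts and medians. Of all genes tested in Slc29a3-/- minus WT, 2.02% were called higher and 2.63% lower in Ly6C low cells, and 10.2% and 17.8% in Ly6C hi cells. Scaling changed these Ly6C hi numbers, from 1072 genes higher to 1657 under TMM and 1459 under RLE. The genes called lower went from 1877 to 1274 and 1435, so list counts under a scaling are to be read beside these. Among the kinases and adaptors that act below the γ chain, Syk, which docks on the phosphorylated ITAM, rose in Slc29a3-/- Ly6C low cells from 269 to 597 RPM (1.16, SE 0.16, adjusted P = 0.00095) and in Slc29a3-/- Tlr7-/- cells to 531 RPM (1.00, adjusted P = 0.0064). The PI3-kinase subunit Pik3cd also rose (0.70, adjusted P = 0.040), while the linker Lat2 fell (-0.72, adjusted P = 0.036). In all 2 of 23 genes were higher and 1 lower in Slc29a3-/- Ly6C low cells, with a median of 0.14 beside 0.00 for all genes. In Slc29a3-/- Ly6C hi cells 0 were higher and 5 of 23 lower (1 and 4 under TMM or RLE scaling), among them Lat2 (-0.94, adjusted P = 0.0029) and the docking protein Gab2 (-0.80, adjusted P = 0.0012). Syk showed an interaction of genotype and subset of -0.97 (adjusted P = 0.0075).

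The list of ITIM receptors, inhibitory receptors other than Fcgr2b of which most carry an ITIM, held the most calls in Slc29a3-/- Ly6C low cells. 6 of 14 were higher (Cd72, Cd200r1, Clec4a2, Milr1, Pecam1 and Siglece) and none lower, with a median of 0.33. Cd72, a co-receptor best known in B cells, rose from 16.6 to 163 RPM (3.22, SE 0.27, adjusted P = 1.8e-05). Cd200r1, the receptor for CD200, which is on the list but has no ITIM, rose from 5.04 to 28.9 RPM (2.18, SE 0.37, adjusted P = 0.0047). In Slc29a3-/- Tlr7-/- Ly6C low cells 1 of 14 was higher (Pecam1, 0.83, adjusted P = 0.020) and 1 lower (Cd300lf, -1.40, adjusted P = 0.021), and Cd72 was at 17.4 RPM and Cd200r1 at 2.96 RPM. In Slc29a3-/- Ly6C hi cells 3 of 14 were higher (6 of 14 under TMM or RLE scaling), led by Clec12a (1.08, adjusted P = 0.0089) and Clec4a2 (1.07, adjusted P = 0.00058), and 1 lower (Cd300a, -0.66, adjusted P = 0.019). Of the 14 inhibitory phosphatases and adaptors, 1 was higher in Slc29a3-/- Ly6C low cells, the membrane adaptor Pag1 (0.88, adjusted P = 0.0061), and the ubiquitin ligase Cblb was lower in Slc29a3-/- Ly6C hi cells (-0.64, adjusted P = 0.0498). Under TMM or RLE scaling 0 of the 14 were lower and 1 was higher in Ly6C hi cells. The phosphatases Inpp5d and Ptpn6, which bind ITIMs, were called in none of the 6 genotype comparisons, and neither were the adaptors Tyrobp and Hcst nor B2m. The third adaptor, the lymphocyte chain Cd247, was lower in Slc29a3-/- Ly6C hi cells. B2m, the partner of FcRn, was higher in Ly6C low than in Ly6C hi cells in WT (0.77), Slc29a3-/- (0.90) and Slc29a3-/- Tlr7-/- mice (1.06), the direction of Fcgrt.

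Other Fc receptors were mostly not measurable, with 5 of 12 tested in Ly6C low cells. Of these, Fcrl5, which encodes an Fc receptor-like protein, rose from 2.46 to 95.5 RPM in Slc29a3-/- (4.79, SE 0.26, adjusted P = 3.3e-07). It was at 12.8 RPM in Slc29a3-/- Tlr7-/- cells, below Slc29a3-/- (2.81 for the difference, adjusted P = 9.8e-05). Fcrl1 rose from 33.4 to 58.2 RPM (0.78, adjusted P = 0.031). Both were also called higher in Slc29a3-/- Tlr7-/- than in WT Ly6C low cells, Fcrl1 at 55.6 RPM (0.69, adjusted P = 0.041). These receptors are best known in B cells, whose summed markers are given above. In Slc29a3-/- Ly6C hi cells 0 of 4 tested were higher and 1 was lower (Fcrla). Receptors that pair with the γ chain besides the Fcγ receptors held 0 of 7 calls in Slc29a3-/- Ly6C low cells and 0 higher and 4 of 8 lower in Ly6C hi cells, among them the NK cell receptor Ncr1 (-3.01, adjusted P = 0.015), which is itself 1 of the 6 NK cell markers, and the C-type lectin Clec4d (-1.48, adjusted P = 0.0024). Of the same receptors 3 of 7 were lower in Slc29a3-/- Tlr7-/- than in WT Ly6C low cells, namely Clec4d (-1.56, adjusted P = 0.012), the lectin Clec4e (-0.68, adjusted P = 0.017) and Ncr1. Among genes of the phagocytic actin machinery, 1 of 23 was higher in Slc29a3-/- Ly6C low cells, the coronin Coro1a (0.75, adjusted P = 0.024), and in Ly6C hi cells 2 were higher (the GTPase Rac2, 0.85, and gelsolin Gsn, 0.85) and 2 lower (Wasl, -0.87, and Arpc2, -0.62). This split of the actin genes turned with the scaling, to 10 higher and 0 lower under TMM and 9 higher and 1 lower under RLE.

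Among factors and receptors known to regulate Fc receptor genes, more fell than rose in Slc29a3-/- cells. In Ly6C hi cells 7 of 13 fell and 1 rose (5 and 1 under TMM, 6 and 1 under RLE scaling), with a median of -0.58 beside -0.14 for all genes. The monocyte factor Irf8 fell from 640 to 241 RPM (-1.43, SE 0.18, adjusted P = 0.00016) and Cebpa from 300.1 to 141 RPM (-1.08, SE 0.20, adjusted P = 0.0019), while C5ar1, the receptor for the complement fragment C5a, rose by 0.66 (adjusted P = 0.0060). In Ly6C low cells 3 of 13 fell and none rose, with C5ar1 at -0.92 (adjusted P = 0.034) and the interferon-γ receptor chain Ifngr1 at -0.71 (adjusted P = 0.037). Of 8 interferon-responsive genes tested in Ly6C low cells, 0 were called in Slc29a3-/- against WT by limma, which does not show that they were unchanged. Their median was -0.12 beside 0.00 for all genes. In Ly6C hi cells Ifit2 rose (1.09, adjusted P = 0.0017) and Irf1 fell (-0.75, adjusted P = 0.010). In Slc29a3-/- Tlr7-/- against WT Ly6C hi cells 1 gene was called across all these lists, the interferon-responsive Ifit1 (0.82, adjusted P = 0.048). Against WT replicate 4 alone, calls in Slc29a3-/- Ly6C low cells were left in the ITIM receptors (3 of 14 higher) and the other Fc receptors (1 of 4 higher), and in Ly6C hi cells none of the lists held a call in limma.

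**Figure D5:**
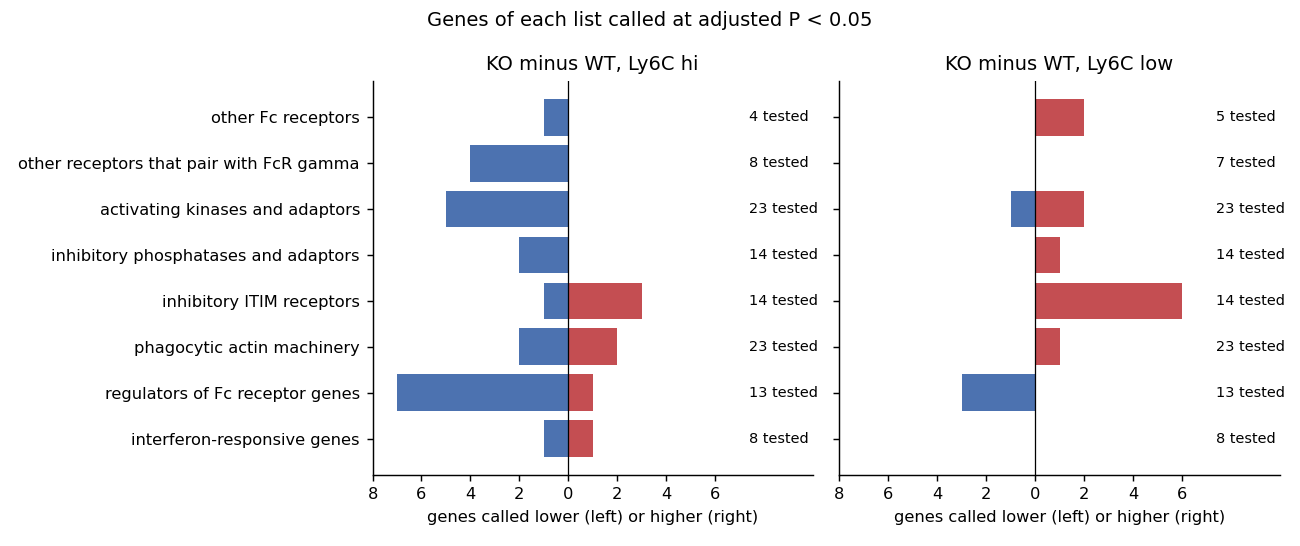
Number of genes of each pathway list called lower (left of 0) and higher (right of 0) at an adjusted P under 0.05 in KO (Slc29a3-/-) minus WT, in Ly6C hi and Ly6C low cells, with the number tested at the right of each panel. The list of inhibitory ITIM receptors, in which Cd200r1 has no ITIM, holds 6 higher calls of 14 in Ly6C low cells. Regulators of Fc receptor genes hold 7 lower calls of 13 in Ly6C hi cells.

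The genes whose levels followed each member most closely were found by Pearson's r of log2(RPM + 1) over the 24 libraries, among 7486 genes with a mean of at least 10 RPM. These values are a description, since the libraries share groups and barcodes. Fcgr4 was closest to Pecam1 (r = 0.984), Sh2d1b1 (0.982) and Smpdl3b (0.980) over libraries of both subsets. After the mean of each subset was subtracted, it was closest to Itgb3 (0.924), Fcrl5 (0.908) and Pfkfb3 (0.872). Fcgr2b was closest to Fam111a (0.849), March8 (0.838) and Slfn2 (0.831), and with subset means subtracted to Slfn2 (0.835), Fam111a (0.811) and Rb1cc1 (0.794). Fcgr1 was closest to Ogfr (0.966), Parp1 (0.950) and Vwa5a (0.947), and within subsets to Sumf1 (0.834), Chmp6 (0.830) and Stx16 (0.822). Fcgr3 was closest to Ccl6 (0.886), Tle3 (0.869) and Slc39a10 (0.820), and within subsets to Pik3r5 (0.875), Ccl6 (0.865) and the neighbouring chemokine gene Ccl9 (0.860). Fcer1g was closest to Fbxo4 (0.956), Tmc6 (0.950) and Entpd6 (0.949), and within subsets to Entpd6 (0.834), Mob3a (0.815) and Aaed1 (0.795). Fcgrt was closest to Acss1 (0.967), Abcg1 (0.964) and Fbxo4 (0.962), and within subsets to Sepp1 (0.915), Map3k1 (0.888) and Ank (0.888). Among the members themselves, the highest correlation within subsets was that of Fcgr3 with Fcgrt (0.787).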

How the data were processed

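Spleen cells were depleted of other lineages with beads and sorted as CD11b+ NK1.1- Ly6G- cells, either Ly6C high with low FcγRIV or Ly6C low with high FcγRIV. RNA was read with the Ion AmpliSeq Transcriptome Mouse panel on an Ion Proton sequencer. The authors deposited 1 table of RPM values, which sum to 1000000 in each library, with 0 written as 0.0001. Which of the stated steps (Cutadapt, STAR against mm10, HTSeq, DESeq2) gave this table is not stated. Columns were matched to samples by barcode, and groups were taken from the labels.

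Values were analysed as log2(RPM + 1), so that fold changes of low genes are understated. Genes that reached 1 RPM in 4 or more of the fitted libraries were tested with limma 3.58.1 in R 4.3.3, with an intensity trend and Benjamini-Hochberg adjustment over all genes tested, and called at an adjusted P under 0.05. Each subset was fitted over its 12 libraries, and comparisons between subsets and interactions over all 24. Single members were also compared with an exact two-sided permutation test. The limma steps were tested on simulated data, and tables were made with Python 3.11.15. The labels do not say that the 4 libraries of a group came from separate mice, so P values measure the spread between these libraries. No pair of replicates held identical values (36 pairs, Pearson's r 0.967 to 0.998).

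Same-numbered WT libraries of the subsets deviated together (r 0.26 to 0.62 over genes, above 0.1 in all 4 pairs), which was the case for no other pair of groups. The closest Ly6C hi library carried the same number for 1 of 4 Ly6C low libraries in WT, 3 of 4 in Slc29a3-/- and 1 of 4 in Slc29a3-/- Tlr7-/-. Whether the numbers pair the libraries therefore cannot be told. Named genes are the members, the targeted genes, Tyrobp, Hcst, Syk, Inpp5d, Ptpn6 and B2m, for each list and comparison up to 2 called genes with the largest increase and 2 with the largest decrease at a mean of at least 10 RPM, and for each member the 3 most correlated genes. Names of list members that were called but fall outside this rule were added after their values were seen. Members and lists were chosen with earlier results of these data known. List genes that the table lacks were not used here, and the results of some list and marker genes are not reported here. Coding sequences are from GENCODE vM21, and promoters are from RefSeq on GRCm38.p6, where all 6 members were matched by symbol. Alternatives were other scalings, filters, pseudocounts, thresholds, sets of libraries, a replicate block, WT replicate 4 alone and, chosen after seeing the data, leaving out the libraries with Xist and Ddx3y above 10 RPM.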

Additional observations from a re-analysis of the deposited data

Results flagged for a closer look

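For 7 interactions of members and 2 of neighbours in the pathway, the genotype difference itself differed between the subsets by limma (adjusted P under 0.05). Of all genes, 8.85% were called in the interaction of Slc29a3-/- minus WT and 8.97% in that of Slc29a3-/- minus Slc29a3-/- Tlr7-/-. Both interactions use the same Slc29a3-/- libraries. For Slc29a3-/- minus WT, the interaction (the Ly6C hi difference less the Ly6C low one) was -0.95 for Fcgr3, -1.22 for Fcgr4, -1.27 for Fcgr2b, -1.41 for Fcgrt and -0.97 for Syk. For Fcgr4 this cannot be told apart from the sort on FcγRIV. For Slc29a3-/- minus Slc29a3-/- Tlr7-/- it was -0.90 for Fcgr1, -0.77 for Fcgr3, -1.26 for Fcgrt and -0.62 for the adaptor Tyrobp (adjusted P = 0.0496). With TMM or RLE scaling these calls of Fcgr1 and Fcgr3 were lost (limma adjusted P 0.057 to 0.126).

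In 3 of 36 combinations of member and group, 1 library stood far from the other 3. These were Fcer1g in Slc29a3-/- Ly6C low replicate 1, at 4421 RPM below the others, Fcgr2b in WT Ly6C low replicate 4, at 37.9 RPM above the others, and Fcgrt in WT Ly6C hi replicate 4, at 158 RPM above the others. Chance flags about 1 in 20 groups by this measure.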

How the results depend on the processing

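Of 1842 log2 fold changes of members recomputed under an alternative, 1723 kept their direction and side of the threshold, 78 lost a call, 29 gained one and 12 changed sign. None of those that changed sign was called. Amplicon efficiency and position, and the reads behind each value, limit what the RPM can show. Count tests with edgeR and DESeq2 were listed as alternatives and were not run, because the table holds RPM.

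Against WT replicate 4 alone, the number of members called went from 2 to 0 in Slc29a3-/- minus WT Ly6C hi, from 2 to 1 in Ly6C low, from 1 to 0 in Slc29a3-/- Tlr7-/- minus WT Ly6C low, from 6 to 2 between the WT subsets (with Fcgr4, which the gate fixed) and from 4 to 0 in the interaction of Slc29a3-/- minus WT. Uncalled values that changed sign there were Fcgr2b in Slc29a3-/- (-0.35) and Slc29a3-/- Tlr7-/- minus WT Ly6C hi (-0.18), Fcgrt in Slc29a3-/- Tlr7-/- minus WT Ly6C hi (-0.032) and Ly6C low (-0.036), Fcgr1 in Slc29a3-/- minus WT Ly6C low (-0.33) and the interaction of Fcgr1 (0.068). The smaller number of WT libraries is part of this alternative.

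In Ly6C low cells, Slc29a3-/- minus WT went from 2 to 4 members when only those groups were fitted. TMM and RLE scaling moved Slc29a3-/- Tlr7-/- minus WT from 1 to 2, Slc29a3-/- minus Slc29a3-/- Tlr7-/- from 1 to 0, and the interaction of the latter from 3 to 1. No filter gave 0 and 1 for the last of these comparisons, and the study's thresholds or a fit of all 24 libraries gave 2 for Slc29a3-/- minus Slc29a3-/- Tlr7-/- in Ly6C low. Leaving out the libraries with Xist and Ddx3y, chosen after seeing the data, gave 1 in place of 2 in Slc29a3-/- minus Slc29a3-/- Tlr7-/- Ly6C hi and 1 in place of 3 in its interaction, and turned the uncalled Fcgr3 of Slc29a3-/- Tlr7-/- minus WT Ly6C hi to -0.068. TMM scaling put Fcgr1 of Slc29a3-/- minus WT Ly6C hi at 0.00 (0.00019562), and RLE put Fcgr3 of Slc29a3-/- minus Slc29a3-/- Tlr7-/- Ly6C low at -0.018. The cause of these changes was not tested.

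With the replicate number as a block, Slc29a3-/- minus Slc29a3-/- Tlr7-/- in Ly6C low went from 1 to 0 members (Fcgr4, adjusted P = 0.050216) and its interaction gained Fcgr2b (adjusted P = 0.048). No other member call changed under the block. Apart from the WT subsets, same-numbered libraries did not all deviate together (r -0.46 to 0.34), and whether the numbers pair the libraries cannot be told.

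Leaving out 1 library at a time gave 1 to 3 members in Slc29a3-/- minus WT Ly6C hi, 2 to 3 in Slc29a3-/- minus Slc29a3-/- Tlr7-/- Ly6C hi, 1 to 4 in Slc29a3-/- minus WT Ly6C low, 1 to 3 in Slc29a3-/- Tlr7-/- minus WT Ly6C low, 0 to 1 in Slc29a3-/- minus Slc29a3-/- Tlr7-/- Ly6C low, 3 to 4 in the first interaction, 1 to 4 in the second and 5 to 6 between the Slc29a3-/- Tlr7-/- subsets, and changed no count between the WT or Slc29a3-/- subsets (6 and 4) or in Slc29a3-/- Tlr7-/- minus WT Ly6C hi (0). The call of Fcgr4 in Slc29a3-/- minus Slc29a3-/- Tlr7-/- Ly6C low was lost without Slc29a3-/- Tlr7-/- replicate 3 or Slc29a3-/- replicate 2 or 4 (adjusted P up to 0.104). Uncalled values whose sign changed were Fcgr3 (range -0.015 to 0.14) and Fcer1g (range -0.20 to 0.0076) in the same comparison.

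Over all genes, calls against WT replicate 4 alone fell from 2949 to 156 (Slc29a3-/- minus WT Ly6C hi), 479 to 35 (the same in Ly6C low), 154 and 915 to 0 and 0 (Slc29a3-/- Tlr7-/- minus WT), 3263 to 646 (WT subsets) and 977 to 23 (interaction). The calls of Slc29a3-/- Tlr7-/- minus WT ranged over the other alternatives from 1 to 1326 in Ly6C hi and from 49 to 2135 in Ly6C low, those of Slc29a3-/- minus WT Ly6C low (479) from 199 to 1624, those of Slc29a3-/- minus Slc29a3-/- Tlr7-/- from 1287 to 2390 in Ly6C hi (2150) and from 74 to 1414 in Ly6C low (199), and those of the interactions (977 and 991) from 632 to 2233 and from 565 to 2498. The subsets of Slc29a3-/- Tlr7-/- gave 3673, or 2134 when fitted alone, and Slc29a3-/- minus WT Ly6C hi (2949) gave 1936 to 3510.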
